A study of Mus musculus with 24 samples.

Results

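Lpl, Fabp4, Pparg, Cebpa, Cebpd and Apoe, 6 genes linked to adipocytes, were followed in mouse embryonic fibroblasts of the established line NIH/3T3. They were chosen by gene symbol and are 6 of the 49568 symbols in the deposited count table. The cells had received halofuginone (100 nM in the sample labels) or the same volume of PBS, the vehicle, for 24 h, and they carry no engineered allele in the labels. Halofuginone inhibits Eprs, the synthetase that charges tRNAs with glutamate and proline, at its proline site. Sequencing covered total RNA of whole cells and 3 pools taken across a polysome gradient. The ribosome-free pool holds mRNA without ribosomes and the free subunits. mRNAs with a single ribosome or a few make up the light pool, and those with more than 5 the heavy pool. This gives 8 groups of 3 libraries, 24 in all, and the study's design describes the treatments as biological triplicates.

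Adipocytes form from fibroblast-like precursors through a relay of transcription factors. Cebpd and Cebpb are switched on early by hormonal signals, and they in turn switch on Pparg, a nuclear receptor for lipid ligands, and Cebpa, which maintain each other and the adipocyte state. Fabp4, which carries fatty acids in the cytosol, and Lpl, the secreted lipase that frees fatty acids from circulating lipoproteins, are classical targets of these factors. Apoe, a lipoprotein component that binds lipoprotein receptors on cells, is made by adipocytes, macrophages and liver cells among others. NIH/3T3 cells are related to the 3T3-L1 line in which adipocyte formation was worked out, but they are not known to form adipocytes readily without added factors. The medium here held calf serum, and the labels name no adipogenic hormone mix.

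Levels are given in CPM, a gene's counts divided by the library's total in megacounts, with TMM scaling within each kind of RNA, so they are shares of a library and not amounts per cell. In such bulk samples, fewer cells of a type and less RNA per cell cannot be told apart. The libraries held 10.3 to 25 megacounts each. Mitochondrially encoded RNA took 8.69 to 34.9% of the counts in the ribosome-free pool and at most 7.71% in any library of the other kinds of RNA. The table's columns fall into set A (1 library a group, 8 in all) and set B (2 libraries a group, 16 in all, with column tags 2 and 3 in total RNA and 2 and 4 in the pools). Headers of halofuginone columns in set A give 50 nM, against 100 nM in all sample labels. The gradient was also cut differently, with fractions 1 to 2, 3 to 6 and 7 to 11 pooled in set A and 1 to 5, 6 to 13 and 14 to 21 in set B. In total RNA the halofuginone library of set A stood apart from the other 2. Those 2, with tags 2 and 3, were the closest pair of libraries within any group (mean chi-square of 3.12 per gene, against 21.1 for the next pair), although they differed by more than sampling noise. Total RNA is therefore given with all 6 libraries and with the 4 of set B. Set B was fitted alone after this split was seen in the same data. Its SE and p-values leave out the difference between the sets, and 70.0% of all genes were called in it.

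The summed level of fibroblast markers was high in every library, and that of mature adipocyte markers was near 0. The summed level of 9 fibroblast markers lay between 1801 and 12896 CPM over the 24 libraries. The summed level of 6 markers of mature adipocytes (Adipoq, Plin1, Cidec, Retn, Lep and Cfd) lay between 0 and 1.44 CPM, and none of these 6 genes was abundant enough to be tested in any comparison. Summed macrophage markers, of interest because macrophages also make Apoe, Lpl and Fabp4, lay between 2.02 and 11 CPM. In total RNA their sum was 4.43 to 7.52 CPM in vehicle and 2.02 to 6.12 CPM with halofuginone, with 2 of 9 genes at 0 counts in each group. In set B, 2 of the 9 were abundant enough to be tested and both fell, where 36.9% of all genes were called lower. Cd68 fell by 1.86 ± 0.25 (log2), from 3.25 to 0.924 CPM (edgeR adjusted p = 0.000327). Csf1r fell by 3.42 ± 0.52, from 0.936 to 0.0866 CPM (edgeR adjusted p = 0.000656). Its level with halofuginone lay below that of 3 counts in those libraries, 0.136 and 0.124 CPM. Any part of macrophages in the levels of Apoe, Lpl and Fabp4 was not tested.

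The 6 genes have the following positions on GRCm38, in the GENCODE M21 annotation. Cebpd lies at chr16:15887286-15891031 on the plus strand, Pparg at chr6:115360951-115490399 on the plus strand and Cebpa at chr7:35119293-35121928 on the plus strand. Lpl lies at chr8:68880491-68907448 on the plus strand, Fabp4 at chr3:10204088-10208576 on the minus strand and Apoe at chr7:19696109-19699188 on the minus strand. All are protein-coding. Cebpd shares 562 exonic bases with Spidr, a gene on the opposite strand. Spidr had 92.4 ± 8.21 CPM in vehicle total RNA and 56.6 ± 16.1 CPM with halofuginone (SD, n = 3). Since the strand setting of the counting is not given in the sources used here, reads in the shared bases may be assigned to either gene or dropped. Cebpa overlaps the antisense gene Gm45091 by 51 exonic bases, and this gene had 0 counts in all groups.

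RefSeq windows of the 250 bases before a transcript start (GRCm38.p6) were at hand for 3 of the 6 genes: Pparg, Cebpa and Apoe. They are shown because C/EBP proteins are known to act on the Pparg gene, and because Apoe was the member whose level was higher with halofuginone. Each is written 5′ to 3′ on the gene's strand and ends at the base before the start. The words searched on both strands were TTGCNNAA, a word for C/EBP proteins, and TGATGNAA, the composite word of C/EBP and ATF proteins, and matches are in capitals. No match of one word overlapped a match of the other.
Pparg, the window farthest downstream of 3, chr6:115421816-115422065, plus strand: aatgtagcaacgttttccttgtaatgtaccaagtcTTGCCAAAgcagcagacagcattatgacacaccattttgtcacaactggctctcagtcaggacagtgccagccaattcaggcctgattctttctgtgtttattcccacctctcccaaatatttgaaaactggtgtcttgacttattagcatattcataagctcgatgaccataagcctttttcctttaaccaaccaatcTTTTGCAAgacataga
Apoe, a start inside the gene, chr7:19698622-19698871, minus strand: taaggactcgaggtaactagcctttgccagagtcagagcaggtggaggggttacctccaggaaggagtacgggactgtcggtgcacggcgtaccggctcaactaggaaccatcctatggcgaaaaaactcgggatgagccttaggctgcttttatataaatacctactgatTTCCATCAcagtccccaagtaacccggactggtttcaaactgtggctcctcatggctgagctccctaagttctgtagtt
Apoe, the outermost start, chr7:19699189-19699438, minus strand: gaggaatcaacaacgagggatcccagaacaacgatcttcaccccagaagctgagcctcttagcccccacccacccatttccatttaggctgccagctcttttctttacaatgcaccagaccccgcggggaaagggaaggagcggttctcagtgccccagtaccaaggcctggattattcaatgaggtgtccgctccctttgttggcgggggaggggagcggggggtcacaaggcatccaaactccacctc
Cebpa, chr7:35119043-35119292, plus strand: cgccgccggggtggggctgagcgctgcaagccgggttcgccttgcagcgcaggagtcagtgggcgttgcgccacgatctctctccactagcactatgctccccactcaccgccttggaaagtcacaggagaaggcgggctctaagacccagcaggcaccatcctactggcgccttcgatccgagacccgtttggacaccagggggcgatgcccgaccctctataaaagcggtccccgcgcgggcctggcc
The Pparg window holds the C/EBP word at 2 places. TTGCCAAA lies on the plus strand, 207 bases before the start. TTGCAAAA lies on the minus strand (printed as its reverse complement), 8 bases before the start. The Apoe window inside the gene holds the composite word as TGATGGAA on the strand opposite to the one printed, 71 bases before the start. The outermost Apoe window and the Cebpa window hold neither word. Of the 7 windows at hand, the 3 not printed, 2 of Pparg and 1 of Apoe, hold neither word either, so the Pparg window shown is the only one of 3 with a match. Among 32851 RefSeq promoter windows of the same length, 9.56% held the C/EBP word and 3.45% held the composite word. These matches describe letters in a window and not bound sites.

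Cebpd and Lpl were the most abundant of the 6 genes in vehicle total RNA, and Pparg and Cebpa were at the detection limit. Divided by the length of the transcript with the longest coding sequence, the vehicle total RNA level was 49.5 ± 11.2 CPM per kb for Cebpd, 42.1 ± 20.03 for Lpl, 12.3 ± 2.17 for Fabp4, 2.35 ± 0.0234 for Apoe and 0.0654 ± 0.0315 for Pparg (SD, n = 3). Cebpd and Lpl, neighbours in that order, did not differ beyond their spread. Cebpa had 0 counts in all 6 total RNA libraries, where 3 counts would be 0.124 to 0.165 CPM. That floor covers counting error only.

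**Figure D1:**
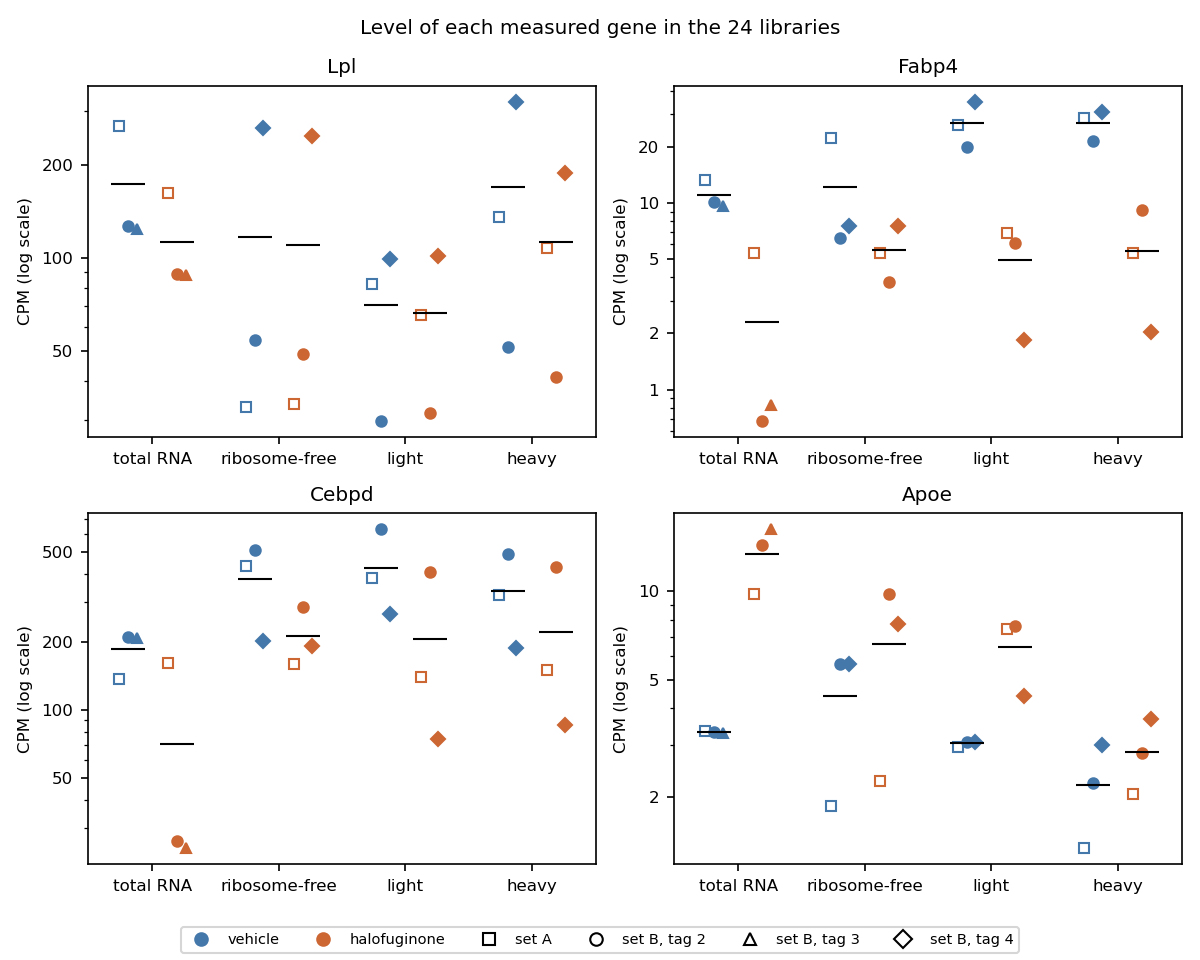
CPM (log axis) of Lpl, Fabp4, Cebpd and Apoe in each library of the 4 kinds of RNA, vehicle in blue and halofuginone in orange, with open squares for set A, filled symbols for set B and a black bar at each group's mean. In total RNA the Cebpd value of the set A halofuginone library (162 CPM) lies between the vehicle values, while both set B halofuginone libraries lie far below them.

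Among the regulators, Cebpd was the one expressed at a high level. It is a leucine zipper factor that is induced early in adipocyte formation and also in acute inflammation. Its vehicle level in total RNA was 137 CPM in the set A library, 211 CPM at tag 2 and 209 CPM at tag 3. With halofuginone the set A library had 162 CPM, tag 2 had 26.3 CPM and tag 3 had 24.4 CPM. The set B libraries were lower with halofuginone than any vehicle library, while that of set A was above the set A vehicle library, so the groups overlap. Over all 6 libraries the log2 fold change was -1.39 ± 0.77 (SE; edgeR adjusted p = 0.351). Within set B Cebpd fell by 3.09 ± 0.08 (log2), from a level 8.54 times higher, at an adjusted p of 1.77e-07 in edgeR. Spidr, the overlapping gene, was between 46.7 and 75.2 CPM in the 3 halofuginone libraries, so in set B it exceeded Cebpd there, and its part in the remaining Cebpd counts was not tested.

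In the gradient pools Cebpd was lower with halofuginone in each of 9 same-tag pairs of libraries. Tags are taken to pair the libraries in the pools, by how they deviate together, but not in total RNA. The highest library of a group was up to 2.61 times the lowest in the vehicle pools and up to 5.46 times in the halofuginone pools. The ribosome-free vehicle libraries had 431 CPM (set A), 510 CPM (tag 2) and 201 CPM (tag 4), against 159, 285 and 191 CPM with halofuginone. The light vehicle libraries had 383, 628 and 266 CPM in the same order, against 139, 406 and 74.4 CPM with halofuginone. The heavy vehicle libraries had 323, 491 and 188 CPM, against 150, 429 and 85.7 CPM. Groups overlapped in all 3 pools. The main fits of the pools, here and for the other genes, did not use the pairing. Their SE and p-values therefore include the spread between tags. The log2 fold changes were -0.85 ± 0.47 in the ribosome-free pool (edgeR adjusted p = 1.00), -1.04 ± 0.62 in light (0.981) and -0.59 ± 0.60 in heavy polysomes (0.919). With each kind of RNA scaled on its own, group means of Cebpd lay between 426 CPM (vehicle light polysomes) and 70.9 CPM (halofuginone total RNA). Their order across kinds of RNA depends on that scaling: the vehicle ribosome-free and heavy means were 381 and 334 CPM on it, and 509 and 255 CPM when the 2 pools were scaled together.

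Pparg and Cebpa, the pair that sustains the adipocyte state, could not be compared between treatments. Pparg had 66 counts over the 24 libraries, at most 9 in one, and 0 in 7 libraries. In total RNA it had 1, 3 and 3 counts in vehicle and 5, 0 and 1 with halofuginone, in set A and at tags 2 and 3. In heavy polysomes it had 7, 8 and 1 counts in vehicle and 3, 3 and 0 with halofuginone. Cebpa had 18 counts over the 24 libraries, at most 5 in one, and 0 in 13 libraries. Of these 18, 12 were in the ribosome-free pool, 3 in vehicle and 9 with halofuginone. Neither gene passed the expression filter in any comparison, so no fold change is given, and a difference at this level was not detectable at this depth.

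**Figure D2:**
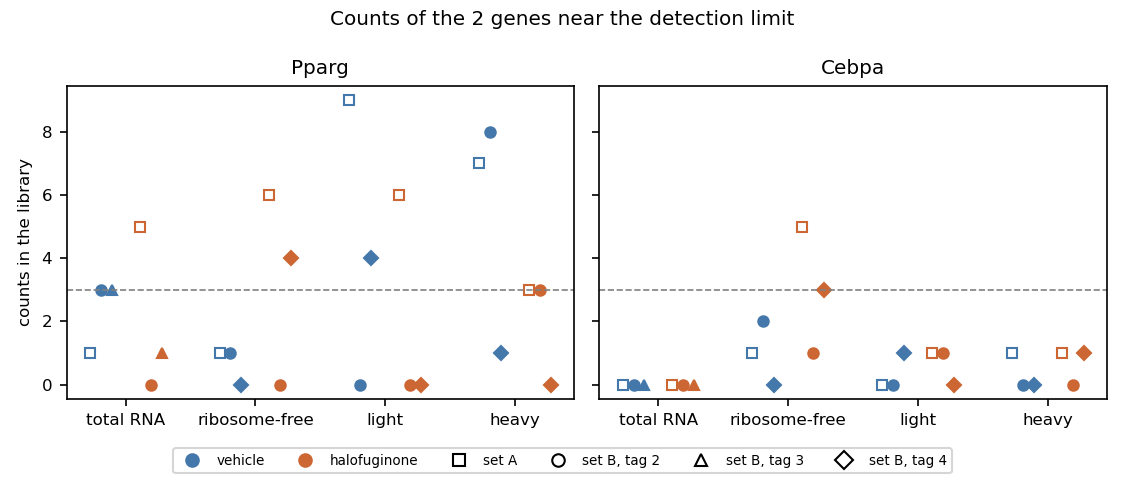
Raw counts of Pparg and Cebpa in each of the 24 libraries by kind of RNA, vehicle in blue and halofuginone in orange, open squares for set A, with a dashed line at 3 counts. No library exceeds 9 counts of Pparg or 5 of Cebpa, and Cebpa is at 0 in all total RNA libraries.

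Among the downstream genes, Fabp4 was lower with halofuginone in all kinds of RNA except at 1 tag of the ribosome-free pool. In total RNA it stood at 13.2, 10.2 and 9.63 CPM in vehicle and at 5.39, 0.680 and 0.825 CPM with halofuginone, in set A and at tags 2 and 3. All 3 halofuginone libraries lay below all 3 vehicle libraries, and the counts behind the lowest value were 15. Over all 6 libraries the log2 fold change was -2.26 ± 0.82 (edgeR adjusted p = 0.267). Within set B Fabp4 fell by 3.75 ± 0.20 (log2), a level 13.4 times lower, at an adjusted p of 2.41e-06 in edgeR.

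The lower Fabp4 level was also seen on ribosomes. The light vehicle libraries had 26.1, 19.9 and 34.8 CPM against 6.91, 6.11 and 1.84 CPM with halofuginone. The heavy vehicle libraries had 28.5, 21.5 and 30.6 CPM against 5.43, 9.21 and 2.04 CPM. The groups did not overlap in either polysome pool. The log2 fold change was -2.43 ± 0.49 in light (edgeR adjusted p = 0.981, rank 12 of 12632 genes by p) and -2.26 ± 0.50 in heavy polysomes (edgeR adjusted p = 0.767, rank 26 of 12222). DESeq2 called both, with adjusted p = 0.00160 in light and 0.00313 in heavy polysomes, and so did edgeR without the filter on low counts, with adjusted p = 0.00234 and 0.00406. In the ribosome-free pool, where vehicle had 22.4, 6.51 and 7.49 CPM and halofuginone 5.42, 3.77 and 7.52 CPM, the groups overlapped and the log2 fold change was -1.12 ± 0.56 (edgeR adjusted p = 1.00). Fabp4 with halofuginone was below vehicle in 11 of 12 comparisons of libraries with the same tag. These include total RNA, where tags are not taken as pairs. With each kind of RNA scaled on its own, the mean Fabp4 level was highest in vehicle light (26.9 ± 7.45 CPM) and vehicle heavy polysomes (26.8 ± 4.76 CPM). These 2 did not differ beyond their spread.

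Lpl, abundant but variable between libraries, was slightly lower with halofuginone in total RNA. Vehicle total RNA had 268, 127 and 125 CPM and halofuginone 162, 89.1 and 88.5 CPM, in set A and at tags 2 and 3. The set A libraries of both treatments were higher than those of set B, so the groups overlap. Halofuginone was lower in each of the 3 comparisons of same-tag libraries, with ratios of 0.605, 0.703 and 0.709. Tags are not taken as pairs in total RNA. Over all 6 libraries the log2 fold change was -0.61 ± 0.40 (edgeR adjusted p = 0.404). Within set B Lpl fell by 0.55 ± 0.07 (log2), at an adjusted p of 0.000214 in edgeR.

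In the pools Lpl followed the column tag. In the ribosome-free pool vehicle had 33.0, 54.5 and 263 CPM in set A and at tags 2 and 4, and halofuginone 33.8, 49.0 and 248 CPM. Light polysomes had 82.4, 29.8 and 99.8 CPM in vehicle and 65.8, 31.6 and 102 CPM with halofuginone. Heavy polysomes had 136, 51.8 and 320 CPM in vehicle and 108, 41.4 and 188 CPM with halofuginone. The spread between tags reached 7.97 times in the vehicle ribosome-free pool. The same-tag ratios of halofuginone to vehicle lay between 0.588 and 1.06 in the 3 pools. Since the fits did not use the pairing, the SE of each pool includes this spread between tags. The log2 fold changes were -0.09 ± 1.00 in the ribosome-free pool (edgeR adjusted p = 1.00), -0.09 ± 0.53 in light (0.997) and -0.59 ± 0.70 in heavy polysomes (0.926).

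Apoe was the member with higher levels after halofuginone. In vehicle total RNA it stood at 3.35, 3.32 and 3.28 CPM, and with halofuginone at 9.75, 14.3 and 16.2 CPM, in set A and at tags 2 and 3. The vehicle values were nearly equal and all 3 halofuginone values lay well above them, that of set A included. Over all 6 libraries the log2 fold change was 2.02 ± 0.26, and Apoe ranked 4 of 13020 genes by p, at an adjusted p of 0.267 in edgeR. DESeq2 called it (log2 fold change 2.01, adjusted p = 4.15e-08). Within set B Apoe rose by 2.16 ± 0.14 (log2), or 4.48 times, at an adjusted p of 7.50e-06 in edgeR.

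In the pools the Apoe difference was smaller. Light polysomes had 2.96, 3.08 and 3.08 CPM in vehicle and 7.42, 7.61 and 4.41 CPM with halofuginone, without overlap (log2 fold change 1.09 ± 0.37; edgeR adjusted p = 0.981). Heavy polysomes had 1.33, 2.23 and 3.00 CPM in vehicle and 2.04, 2.82 and 3.68 CPM with halofuginone, which overlap (0.38 ± 0.46; edgeR adjusted p = 0.926). The ribosome-free pool had 1.86, 5.64 and 5.66 CPM in vehicle and 2.27, 9.76 and 7.76 CPM with halofuginone, which also overlap (0.59 ± 0.65; edgeR adjusted p = 1.00). Halofuginone was above vehicle in all 12 comparisons of same-tag libraries, by 2.91 to 4.94 times in total RNA and by 1.23 to 1.53 times in heavy polysomes. In total RNA the tags are not taken as pairs, so those comparisons are not read as matched pairs. The heavy libraries rest on 29 to 57 counts of Apoe each.

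**Figure D3:**
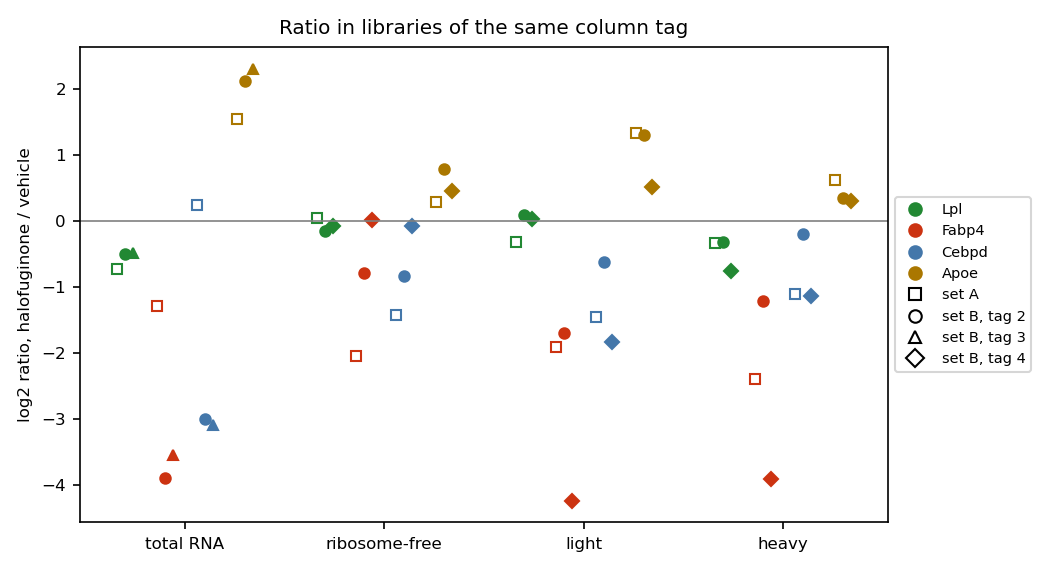
log2 ratio of CPM, halofuginone over vehicle, for libraries of the same column tag, by kind of RNA, for Lpl (green), Fabp4 (red), Cebpd (blue) and Apoe (brown), with open squares for set A and filled symbols for set B. Apoe is above 0 at all 12 points, Fabp4 is below 0 at 11 of 12, and Cebpd of set A total RNA is above 0 while both set B points lie near -3. In total RNA the tags name the libraries and are not taken as pairs.

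The 4 measured genes can be read against all genes tested in the same comparison. With all 6 total RNA libraries edgeR called 0 of 13020 genes (0%), with 2292 at an unadjusted p under 0.05 and 515 called by DESeq2, so that 0 of 4 members matches the background. The groups did not overlap for 2 of the 4, Fabp4 (lower) and Apoe (higher), against 23.8% of all genes, 12.2% higher and 11.6% lower. In the ribosome-free pool 0 of 11960 genes were called by edgeR (0%), with 30 at an unadjusted p under 0.05, and 0 of 4 members had groups apart, against 2.01% of all genes, 1.15% higher and 0.853% lower. In light polysomes 0 of 12632 were called (0%), 540 were at an unadjusted p under 0.05 and DESeq2 called 39. There 2 of 4 members, Fabp4 and Apoe, had groups apart, against 10.4% of all genes, 4.43% higher and 5.97% lower. In heavy polysomes 0 of 12222 were called (0%), 754 were at an unadjusted p under 0.05 and DESeq2 called 78. Fabp4 alone of the 4 had groups apart there, against 12.5% of all genes, 5.40% higher and 7.06% lower. In set B of total RNA all 4 members were called, but so were 70.0% of all genes (9337 of 13334), 33.1% higher and 36.9% lower, and the calls by themselves do not set the members apart. With 2 libraries a group, groups were apart for 85.5% of all genes, 43.6% higher and 41.9% lower. When only the halofuginone library of set A was left out, 8246 genes passed in edgeR, against 9337 in set B. All 4 members were among them, and these calls do not set the members apart either. The log2 fold changes were -2.88 for Cebpd, -0.98 for Lpl, -3.87 for Fabp4 and 2.19 for Apoe (edgeR adjusted p = 7.22e-05, 0.0427, 4.62e-05 and 4.71e-05). By log2 fold change Fabp4 was at percentile 2.13, Cebpd at 3.49, Lpl at 29.3 and Apoe at 97.8 of the genes tested in set B. The p-values of set B measure the spread between 2 libraries a group, which may be technical. The fit without the set A halofuginone library kept the set A vehicle library, so it includes a difference between sets in vehicle only.

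Whether the effect of halofuginone in heavy polysomes differed from that in total RNA was tested over 12 libraries. The difference, heavy polysomes minus total RNA, was -1.62 ± 0.51 for Apoe in log2 units (edgeR adjusted p = 1.00), and by unadjusted p Apoe was at rank 9 of 13459 genes. It was 0.80 ± 1.04 for Cebpd, 0.05 ± 0.91 for Lpl and 0.00 ± 0.63 for Fabp4 (edgeR adjusted p = 1.00 for each). edgeR called 0 of 13459 genes (0%) in this comparison, with 128 at an unadjusted p under 0.05 and 1 called by DESeq2. As fitted, Apoe was 4.05 times higher with halofuginone in total RNA and 1.30 times higher in heavy polysomes, a difference that did not pass the adjusted threshold.

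In vehicle cells alone, heavy polysomes were compared with the ribosome-free pool. The values are shares of a pool, and the light pool did not enter, so they do not give an mRNA's distribution over the gradient. When both pools were scaled together, Apoe had 2.62, 7.28 and 7.41 CPM in the ribosome-free pool and 1.02, 1.70 and 2.29 CPM in heavy polysomes, in set A and at tags 2 and 4. Its share in heavy polysomes was lower, at -1.79 ± 0.56 in log2 units (edgeR adjusted p = 0.0400), and the groups did not overlap. With the column tag as a replicate block, the value was -1.72 (edgeR adjusted p = 0.0129). The call was lost in 5 of 6 fits that left out 1 library, with adjusted p between 0.0783 and 0.142. Of all genes tested, 29.6% were called, 11.9% higher and 17.7% lower in heavy polysomes, and 46.7% had groups apart, 23.3% higher and 23.4% lower. For Cebpd the difference was -0.998 ± 0.51 (edgeR adjusted p = 0.166), for Lpl -0.25 ± 0.83 (0.850) and for Fabp4 0.30 ± 0.51 (0.689). Fabp4 had 31.5, 8.41 and 9.80 CPM in the ribosome-free pool and 21.8, 16.4 and 23.3 CPM in heavy polysomes on that joint scale. Its set A library was higher in the ribosome-free pool and both set B libraries were higher in heavy polysomes. Without the set A ribosome-free library, Fabp4 was higher in heavy polysomes by 1.17 in log2 units (edgeR adjusted p = 0.0142), and 5844 genes in all were called against 3616.

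Because halofuginone acts on the charging of proline, the proline content of the 6 proteins was read from the annotated coding sequences. Fabp4 has 1 proline in 132 residues (0.758%), Apoe 8 in 311 (2.57%) and Lpl 20 in 474 (4.22%). Pparg has 26 in 505 (5.15%), Cebpd 33 in 268 (12.3%) and Cebpa 52 in 359 (14.5%). The median over 20986 genes was 5.26%, which puts Fabp4 at percentile 0.658 and Cebpa and Cebpd at percentiles 98.6 and 96.9. Fabp4 and Cebpd, the 2 members that fell most in set B of total RNA, lie near opposite ends of proline content. Whether proline content bears on the RNA levels was not tested.

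The genes around the members were read from lists, first in set B of total RNA, where the median log2 fold change of all genes was -0.02 and 70.0% of all genes were called, 33.1% higher and 36.9% lower. Counts of called genes in the lists are to be read against those shares. Among 18 transcription regulators of adipocyte formation 14 were tested, 5 rose and 6 fell, with a median of -0.25. Klf5 and Klf4, zinc finger factors that promote the early steps, rose by log2 steps of 1.90 ± 0.14 and 1.09 ± 0.07 (edgeR adjusted p = 1.41e-05 and 6.41e-06). Zfp467, a zinc finger cofactor, fell by 2.15 ± 0.20, and Stat5a, a signal transducer of hormone receptors, fell by 1.74 ± 0.12 (edgeR adjusted p = 4.63e-05 and 7.56e-06). Among 18 inhibitors of adipocyte formation 15 were tested, 6 rose and 7 fell, with a median of -0.18. Trib3 and Ddit3, stress-induced genes whose products restrain C/EBP and insulin signalling, rose by 3.94 ± 0.09 and 3.24 ± 0.12 (edgeR adjusted p = 1.30e-07 and 5.53e-07). Trib2, a relative of Trib3 that destabilises C/EBP proteins, fell by 3.14 ± 0.09, and Dlk1, the preadipocyte surface protein, fell by 1.31 ± 0.08 (edgeR adjusted p = 2.14e-07 and 5.39e-06). Both lists moved in both directions, as did all genes.

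Other genes of fat storage did not move one way either. Of 20 genes of lipid storage or known PPARG targets 11 were tested, 4 rose and 5 fell, near the 33.1% and 36.9% of all genes, with a median of 0.00. Dgat2, which makes triglyceride, rose by 2.37 ± 0.14, from 2.85 to 15.3 CPM, and Pnpla2, the first lipase of triglyceride breakdown, rose by 0.53 ± 0.08 (edgeR adjusted p = 4.97e-06 and 0.000722). Plin4, a lipid droplet coat protein, fell by 2.73 ± 0.11, and Lipe, the hormone-sensitive lipase, fell by 2.05 ± 0.17 (edgeR adjusted p = 6.34e-07 and 2.09e-05). Of 14 partners of Lpl in folding, transport and control 6 were tested, 1 rose and 4 fell (33.1% and 36.9% of all genes), with a median of -0.28. Sel1l, which Lpl needs to leave the endoplasmic reticulum, rose by 0.67 ± 0.07 (edgeR adjusted p = 0.000113). Sdc1, a heparan sulfate proteoglycan that can hold Lpl at the cell surface, fell by 1.33 ± 0.07, and Angptl4, a secreted inhibitor of Lpl, fell by 0.36 ± 0.09 (edgeR adjusted p = 2.57e-06 and 0.00907).

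Genes in the list of Apoe receptors and lipid export were mostly lower while Apoe itself was higher. Of 13 such genes 8 were tested in set B, 1 rose and 7 fell, against 33.1% and 36.9% of all genes, with a median of -0.89 against -0.02. Vldlr, a receptor that binds Apoe, rose by 2.63 ± 0.19, from 1.41 to 9.19 CPM (edgeR adjusted p = 1.16e-05). Abca1, which loads lipid on apolipoproteins, fell by 2.53 ± 0.13, and Scarb1, a receptor for high-density lipoprotein, fell by 1.39 ± 0.08, from 177 to 69.4 CPM (edgeR adjusted p = 2.58e-06 and 3.39e-06). The median of this list was -0.71 over all 6 total RNA libraries, -0.83 in heavy polysomes, -0.53 in light polysomes and -0.03 in the ribosome-free pool, and no gene was called in any of these 4 comparisons. For comparison, the 9 fibroblast markers all fell in set B, with a median of -1.50, among them Col3a1 by 3.25 ± 0.11 and Pdgfra by 2.71 ± 0.07 (edgeR adjusted p = 3.45e-07 and 1.99e-07).

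**Figure D4:**
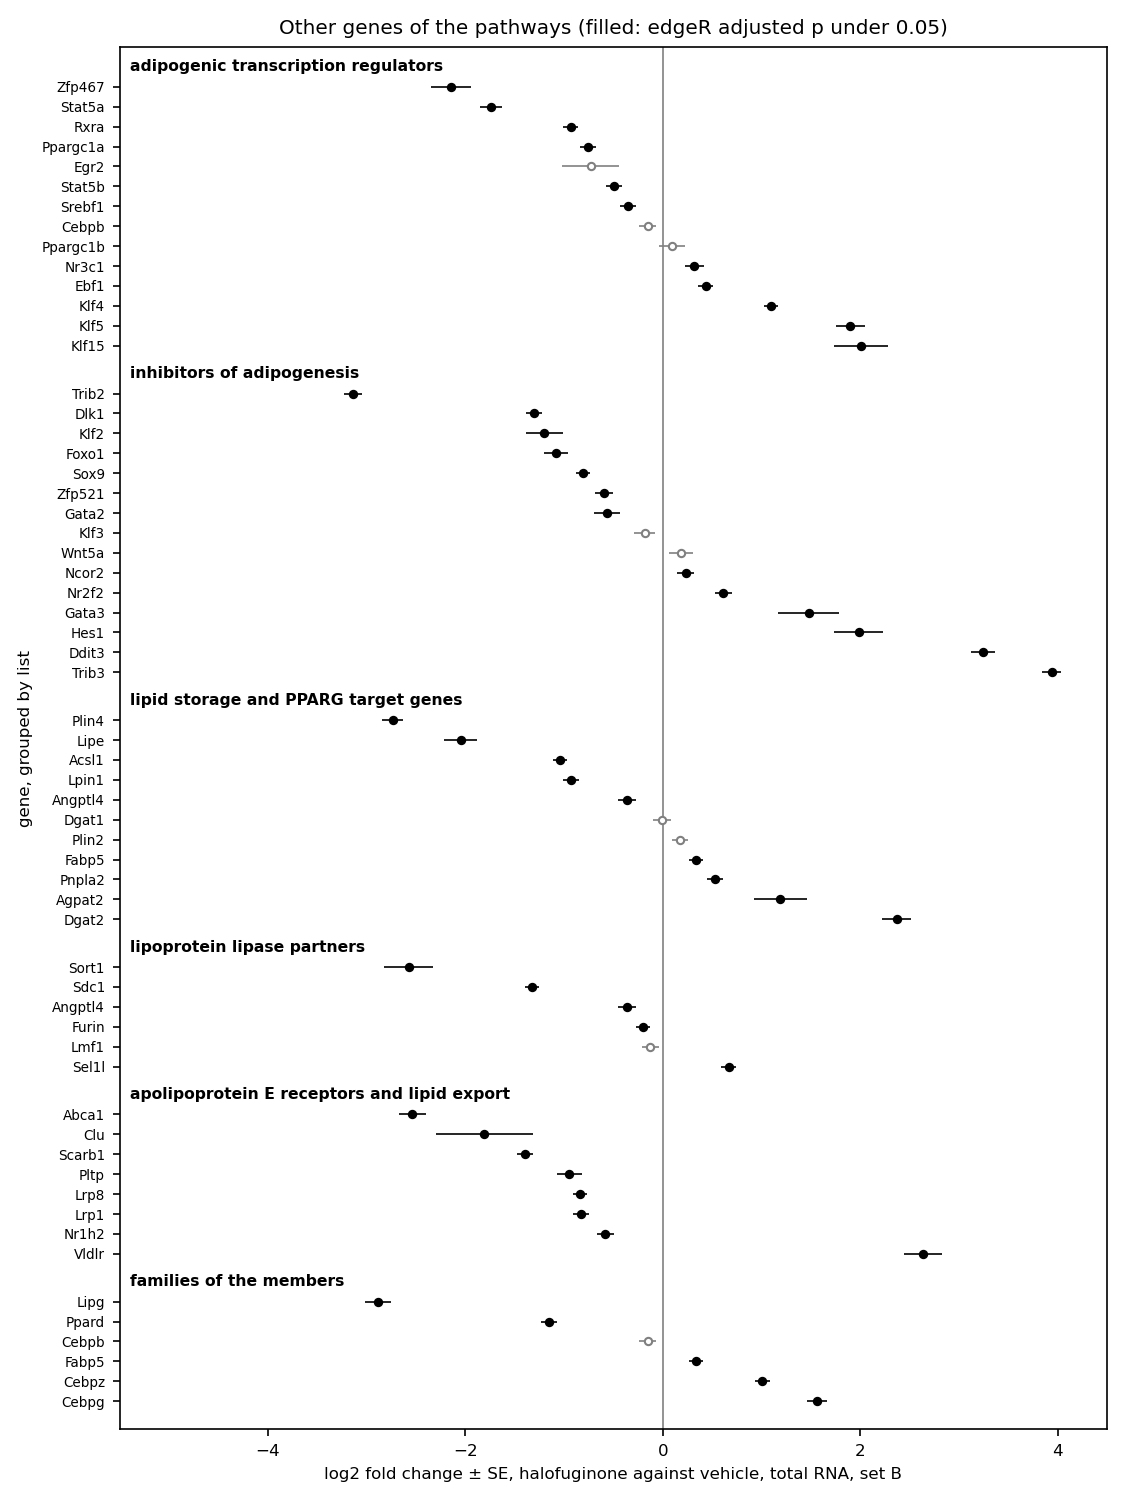
log2 fold change with its SE, halofuginone against vehicle in set B of total RNA (2 libraries a group), for the tested genes of 6 lists, filled where edgeR's adjusted p was under 0.05. Genes lie on both sides of 0 in each list, and 7 of 8 genes in the list of Apoe receptors and lipid export lie below it.

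Genes related to the 6 by family or name were read for level and change. Cebpb, the early partner of Cebpd, had 78.8 ± 5.23 CPM in vehicle and 80.7 ± 15.1 CPM in halofuginone total RNA (SD, n = 3), and in set B its log2 fold change was -0.15 ± 0.09 (edgeR adjusted p = 0.155). Cebpg and Cebpz, the other listed genes named after C/EBP with measurable levels, rose in set B by 1.56 ± 0.10 and 1.01 ± 0.08 (edgeR adjusted p = 6.08e-06 and 1.42e-05). Cebpz is listed by its name only. Of the nuclear receptors related to Pparg, Ppara had 0 counts in total RNA and Ppard fell in set B by 1.15 ± 0.08 (edgeR adjusted p = 1.22e-05). Fabp5, the epidermal relative of Fabp4, had 74.0 ± 17.4 CPM in vehicle total RNA, and in set B it rose by 0.33 ± 0.07 (edgeR adjusted p = 0.00391). Per kb of transcript Fabp5 stood at 75.0 CPM in vehicle total RNA and Fabp4 at 12.3. Lipg, the endothelial lipase related to Lpl, fell in set B by 2.89 ± 0.13, from 23.6 to 3.29 CPM (edgeR adjusted p = 1.23e-06). Of the 12 genes in this list 6 were tested in set B, 3 rose and 2 fell (33.1% and 36.9% of all genes), with a median of 0.09. With all 6 total RNA libraries, and in each pool, edgeR called no gene of these lists, as it called no gene at all. In vehicle cells a few list genes were called between heavy polysomes and the ribosome-free pool, where 11.9% of all genes were higher and 17.7% lower. Of the regulators 1 of 14 tested was higher in heavy polysomes and 1 lower, the lower one being Cebpb (-1.23 ± 0.40; edgeR adjusted p = 0.0465). Of the inhibitors 1 of 15 was higher and 2 were lower, among the latter Ddit3 (-1.84 ± 0.46; edgeR adjusted p = 0.0171). Of the Lpl partners 1 of 6 was called, Sel1l, which was higher in heavy polysomes (1.18 ± 0.36; edgeR adjusted p = 0.0362).

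The genes whose level was most like that of each member were sought among 9675 genes over the 24 libraries, by Pearson's r of log2(CPM + 1). These r values describe libraries that share treatment, kind of RNA, column set and scaling. For Fabp4 they were Tm7sf2 (r = 0.948), Pmvk (0.921) and Mvk (0.920), all 3 enzymes of cholesterol synthesis. For Cebpd they were Prkag2 (0.935), Phlda1 (0.924) and Traf3ip2 (0.924). For Lpl they were Tgfb2 (0.943), Adamts5 (0.891) and Nfib (0.862). For Apoe they were Ebf3 (0.850), Angel2 (0.835) and Cnot4 (0.828). Among the members themselves r was 0.762 for Cebpd with Fabp4 and -0.566 for Fabp4 with Apoe, and between -0.289 and 0.115 for the other 4 pairs.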

How the data were processed

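The authors deposited 1 table of raw counts per gene symbol for 24 libraries of NIH/3T3 cells, made with the TruSeq Stranded mRNA kit, per the labels' protocols. STAR 2.5.2b, Trimmomatic 0.36, featureCounts, Subread 1.5.0p3 and the build GRCm38.p5 are named in the submitters' processing notes. What each did, the annotation, the strand setting and how multi-mapping reads were handled is not given in the sources used here. The kit selects poly(A) RNA, and no spike-in is named. Columns were matched to the 8 groups by header, not to single samples. Of the 49568 symbols, 47240 matched GENCODE M21.

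Each comparison was fitted over all genes with edgeR 4.0.16 (R 4.3.3): TMM scaling, its default expression filter, the quasi-likelihood test and Benjamini-Hochberg adjustment at 0.05. The method was also run on simulated counts. These held no difference between column sets and no pairing of tags, so that run does not bear on either. The main fits held no block for column tags. SE is the log2 fold change divided by the square root of F. The difference of effects used 12 libraries and joint scaling. Alternatives were DESeq2 1.42.0, other scaling, filters, a block, column sets and leaving out libraries.

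The members and lists were chosen with earlier results of these data known, and 1 gene of a list is not reported here. Named genes were the 6 members. From each list they were at most 2 largest rises and 2 largest falls called in set B with at least 5 CPM in a group. Genes related by family or name were named by level, Fabp5 and Cebpb among them, and for each measured member the 3 genes most like it. Same-tag libraries deviated together across genes in the ribosome-free (r = 0.898, 0.790 and 0.774), light (0.751, 0.651 and 0.374) and heavy pools (0.750, 0.686 and 0.364) and between the vehicle ribosome-free and heavy pools (0.316, 0.463 and 0.499). Libraries of different tags there had r of at most 0.246. In total RNA the same-tag values were 0.302 (set A), 0.347 (tag 2) and -0.01 (tag 3). Vehicle tag 2 with halofuginone tag 3 had 0.384, so these tags are not taken as pairs. Vehicle set A with halofuginone tags 2 and 3 had -0.272 and -0.307, below set A with set A. The pairing of the pools rests on these values, since the labels say nothing of what a tag shares.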

Additional observations from a re-analysis of the deposited data

How the results depend on the processing

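Of 352 recomputed log2 fold changes of the 4 measured genes, 313 kept their direction and their side of the 0.05 threshold, 10 passed it, 5 lost it and 24 changed sign. Where a value moved, the cause was not tested unless named. In total RNA, DESeq2 called 515 genes and 1 member, a fit with the column set as a covariate called 6 genes and 0 members, and leaving out 1 library gave 0 to 8246 genes and 0 to 4 members, the highest without the set A halofuginone library. In set B leaving out 1 library gave 7360 to 10233 genes and 4 members. In light polysomes DESeq2 called 39 genes and 1 member, and edgeR without a filter 47 and 1. In heavy polysomes they called 78 and 1, and 105 and 1. With the column tag as a replicate block, heavy polysomes had 2 genes called, light polysomes 3 and the ribosome-free pool 15, against 0 without it, and the block changed no call of a member in any comparison. For the total RNA libraries the tags are not taken as pairs, and the block left 0 genes called. For the difference between heavy polysomes and total RNA, DESeq2 and edgeR without a filter each called 1 gene, and leaving out 1 library gave 0 to 3. For vehicle heavy polysomes against the ribosome-free pool, leaving out 1 library gave 1897 to 5844 genes and 0 to 2 members.

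Leaving out 1 library at a time turned the sign of some small differences, none of which passed the threshold. The Lpl difference then ranged from -1.51 to 1.34 in the ribosome-free pool, from -0.52 to 0.26 in light polysomes and from -1.17 to 0.28 in heavy polysomes, and it was 0.048 in light polysomes with set B alone. In vehicle heavy polysomes against the ribosome-free pool Lpl ranged from -1.05 to 1.17. For heavy polysomes minus total RNA the ranges were -0.56 to 0.89 for Lpl, -0.56 to 1.60 for Fabp4 and -0.10 to 2.28 for Cebpd, the last turning only without halofuginone heavy tag 2 among the single libraries. Fabp4, at 0.00 in that comparison, was -0.0028 with DESeq2 and -0.0011 with median-of-ratios factors. Depth limits Pparg and Cebpa, which no comparison tested, and the Apoe values of heavy polysomes, with at most 57 counts a library.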
